A study of Mus musculus with 18 samples.

Results

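The difference between the interferon gamma (IFNγ) response of pancreatic delta cells and that of pancreatic beta cells was measured by RNA sequencing of sorted mouse cells. It was taken as the delta response (Delta IFNγ against Delta control) minus the beta response (Beta IFNγ against Beta control), so that a positive value stands for a larger rise, or a smaller fall, in delta cells. The 4 groups held 3 libraries each, which makes 12 of the 18 libraries of the series, and the other 6 were alpha cells. All cells came from islets of 12-week-old male C57BL/6JRj mice (C57BL/6 in the labels), for which no genetic change is named, and the whole islets were cultured for 20 h with 5 ng/mL IFNγ or without it before they were dissociated and sorted. Delta cells were the CD24-high and beta cells the CD24-low, CD71-positive fraction of Epcam-positive cells without the blood and endothelial markers CD45, TER119 and CD31. The cells were thus exposed to IFNγ inside the islet, next to each other, and not as separate cultures. The study calls each n an independent biological sample, but the labels do not tie libraries to animals. They also do not say which delta and beta libraries came from the same islets. The p-values therefore rest on the spread between libraries, which was estimated over all 18 libraries, alpha cells included.

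Delta cells make somatostatin and beta cells make insulin. IFNγ binds a receptor of the chains Ifngr1 and Ifngr2, the kinases Jak1 and Jak2 then pass the signal on, and early target genes such as the transcription factor gene Irf1 are switched on through GAS elements in their promoters. Factors of the IRF family bind a second element, the ISRE, at many antigen presentation, guanylate-binding protein and antiviral genes. In the islet this programme is known for raising MHC class I and the inhibitory ligand PD-L1 (gene Cd274) on the endocrine cells.

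The 12 libraries held between 6128845 and 11531734 expected counts. Levels are given as counts per 1000000 (CPM) scaled by the trimmed mean of M values. The labels of the cell types held for the hormones that define them. The delta libraries had 9561 to 35919 CPM of somatostatin (Sst) beside 0 to 68.8 in the beta libraries. Insulin 2 (Ins2) had 17515 to 30178 CPM in beta libraries beside 8.91 to 196 in delta libraries. Iapp, also on the beta identity list, set them apart less. It had 12267 to 15949 CPM in beta libraries and 2780 to 7186 in delta libraries. The delta libraries also held the polypeptide cell markers Ppy and Pyy. Ppy had 1159 to 2476 CPM in the delta controls, 784 to 1462 in Delta IFNγ, 62.4 to 463 in the beta controls and 262 to 458 in Beta IFNγ. Pyy had 2326 to 5741 CPM in the delta controls, 1443 to 2328 in Delta IFNγ, 41.5 to 270 in the beta controls and 161 to 226 in Beta IFNγ. The T cell marker Cd3e was at 0 in all 12 libraries, and the leukocyte marker Ptprc did not go above 0.418 CPM. Other immune genes were not at 0. C1qa had 7.35, 14.1 and 5.19 CPM in the delta controls beside 2.99, 2.93 and 3.20 in the beta controls. Cd68 reached 3.44 CPM in Delta IFNγ and 3.55 in Beta IFNγ. The sum of 23 immune genes was 8.82 to 18.2 CPM in the delta controls and 8.49 to 15.4 in Delta IFNγ. It was 5.48 to 7.83 CPM in the beta controls and 7.94 to 9.21 in Beta IFNγ. Summed over 15 duct genes, the level was 613 to 1033 CPM in the delta libraries and 710 to 1045 in the beta libraries. Summed over 13 endothelial genes, it was 7.47 to 9.73 CPM in the delta controls and 8.03 to 14.3 in Delta IFNγ. It was 3.35 to 6.12 CPM in the beta controls and 3.56 to 5.25 in Beta IFNγ. Among these genes Pecam1 had 0.477 to 1.45 CPM in the delta controls and 2.05 to 3.62 in Delta IFNγ. Acinar RNA varied between libraries. The sum of 36 acinar genes was 3601 CPM in beta control 1, 140 in beta control 2 and 3.04 in beta control 3, lay between 4.62 and 254 in the Beta IFNγ libraries, and was 783 to 6349 in the delta libraries, with the highest value in delta control 3. The glucagon gene Gcg, a marker of alpha cells, had 2263 CPM in delta control 3 and 77.6 and 246 in the other delta controls, 43.0, 44.7 and 649 in Delta IFNγ, 1144, 2977 and 154 in the beta controls and 907 to 1908 in Beta IFNγ. The file of beta control 3 names papain where the other beta files do not, and its sum of immediate early genes was 1769 CPM beside 622 and 719 in the other beta controls. The libraries carried 9 dates in their file names; 2 dates held both treatments of beta cells and 0 held both of delta cells, so that for delta cells the date and the treatment cannot be told apart.

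No gene passed the threshold for a difference between the responses. The responses of 17338 genes were compared with edgeR's quasi-likelihood test. At an adjusted p under 0.05, 0 (0.0%) had a higher and 0 (0.0%) a lower response in delta than in beta cells. The smallest adjusted p was 0.681, for Csf1, and the adjusted p of each other gene was 0.884 or more. At an unadjusted p under 0.05 there were 822 genes, 4.74% of those tested, of which 335 were on the positive and 487 on the negative side. DESeq2 called 2 genes higher and 2 lower, and limma-voom called 0 with and without the date as a random block. The precision of the comparison was limited. The median standard error of the difference was 0.386 on the log2 scale for genes with at least 5 CPM in a group, beside 0.272 for the delta response and 0.275 for the beta response alone. A median difference of -0.06 over all genes tested is the point against which the values below can be read.

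The responses themselves were called in both cell types. In delta cells 209 genes were higher with IFNγ (1.21% of those tested) and 32 lower (0.185%), and in beta cells 183 were higher (1.06%) and 1 lower (0.00577%), each at an adjusted p under 0.05 in edgeR. The higher genes shared 158 members, which is 75.6% of those called in delta cells and 86.3% of those called in beta cells. Of the 51 genes called higher in delta cells alone, 44 had a positive beta value, and of the 25 called higher in beta cells alone, 24 had a positive delta value. A gene called in 1 cell type only is not thereby shown to differ between them, and 0 of these genes passed the test of the difference. In the counts by gene list below, the genes that rose are those called higher at this threshold. The shares to set beside those counts are the 1.21% and 1.06% of all genes tested.

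**Figure D1:**
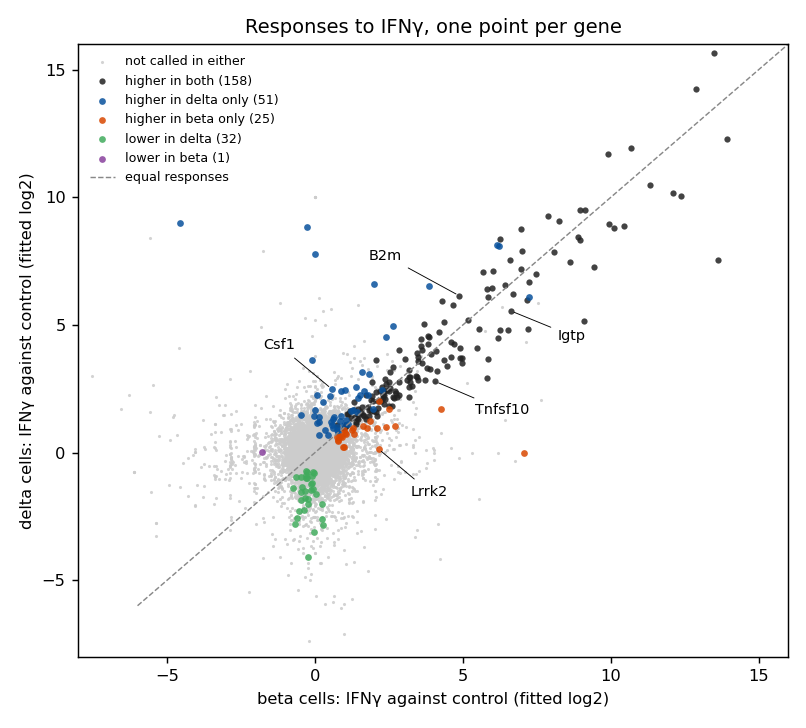
Fitted log2 change with IFNγ in beta cells (x axis) against delta cells (y axis), 1 point per gene of 17338 tested, with the dashed line marking equal responses and colours marking the calls at an adjusted p under 0.05 in each cell type. The 158 genes higher in both lie along the line, Csf1 and B2m above it and Igtp, Tnfsf10 and Lrrk2 below it, and 0 genes passed the test of the difference.

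For the 158 genes higher in both cell types, the size of the response could be compared wherever every group held more than 3 counts, which was so for 128 of them. Their median response was 2.76 in delta cells and 2.80 in beta cells on the log2 scale, and their median difference was -0.10. The 95% interval of the difference lay within 1 log2 unit of 0 for 34 of the 128 (26.6%), beside 28.5% of the 16428 genes tested with such counts. It lay wholly on 1 side of 0 for 14 of the 128 (10.9%), beside 4.38% of the 16428. These 14 were chosen after their values were seen, several of them (H2-Q7, H2-T22, Gbp9, Gbp11, Oas2, Ifit3, Ube2l6 and Mpeg1) for this reason alone, and 5 of them had the larger response in delta cells and 9 in beta cells. They comprised Gm17334, B2m, H2-Q7, Gbp11 and Oas2 on the positive side, and Tnfsf10, Gbp8, Gbp9, Rtp4, Ube2l6, Igtp, Ifit3, Mpeg1 and H2-T22 on the negative side.

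The difference did not pass the threshold for either receptor chain. Ifngr1, which binds the ligand, had 12.6, 12.002 and 15.7 CPM in the delta controls, 11.7, 9.17 and 14.9 in Delta IFNγ, 10.4, 13.6 and 12.9 in the beta controls and 12.4, 14.1 and 10.6 in Beta IFNγ. The groups overlapped, and the difference of the responses was -0.17 (95% interval -0.84 to 0.50). The signalling chain Ifngr2 had 6.97, 6.16 and 7.89 CPM in the delta controls, 8.49, 8.79 and 5.74 in Delta IFNγ, 12.2, 8.55 and 7.91 in the beta controls and 8.35, 9.96 and 5.25 in Beta IFNγ. Every beta control lay above every delta control, the treated groups overlapped, and the difference was 0.41 (-0.66 to 1.48). For Jak1 it was 0.08 (-0.44 to 0.60). Jak2 passed the test in delta cells, where it rose from 52.0, 48.8 and 82.7 to 125, 97.7 and 118 CPM, and in beta cells, where it did not pass, it had 47.1, 49.6 and 58.6 CPM without and 61.8, 71.1 and 64.8 with IFNγ. The treated libraries lay above the controls in both cell types, and the interval of the Jak2 difference, 0.54 (-0.09 to 1.18), held 0.

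Stat2, a transcription factor gene of the pathway named here after its value was seen, had a difference of 0.51 (95% interval -0.11 to 1.13). Socs1, the feedback inhibitor of the Jak kinases, had 0.76 (-1.09 to 2.63), from at most 1.07 CPM in any control. Of the 25 measured genes of receptors and JAK-STAT signalling, 5 rose in delta cells and 4 in beta cells, and the median difference over the 24 with more than 3 counts in every group was 0.06.

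Irf1, an early target of the pathway and itself an activator of MHC class I genes, rose by nearly the same amount in both cell types. It had 35.1, 43.9 and 32.9 CPM in the delta controls and 132, 236 and 172 in Delta IFNγ. The beta controls had 43.6, 34.9 and 35.5 CPM and the Beta IFNγ libraries 157, 176 and 237. The ranges of the cell types overlapped under either treatment, and the difference was -0.05 (95% interval -0.68 to 0.58), which lay wholly within 1 log2 unit of 0. Of 8 interferon regulatory factor genes measured, 6 rose in delta and 6 in beta cells. Gm17334, a gene that lies within Irf1 on the opposite strand (chromosome 11, 53772281 to 53773187, GRCm38), went from 8.11, 7.89 and 6.95 to 101, 116 and 67.4 CPM in delta cells and from 9.83, 9.25 and 14.8 to 37.1, 38.5 and 63.3 in beta cells, a difference of 1.58 (0.77 to 2.40) that did not pass the threshold. The library chemistry kept the strand, but whether the counting used it was not found stated, so reads of Gm17334 and Irf1 may not have been told apart.

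The promoters of 6 genes are shown because they span the range seen. Irf1 had near-equal responses. Igtp and B2m had large responses in both cell types, with differences of the responses on opposite sides of 0. Csf1, Lrrk2 and Tnfsf10 are protein-coding genes among the smallest p-values for the difference. Each promoter window runs from 250 bases before to 50 bases after a transcription start in RefSeq (GRCm38.p6). It is written 5′ to 3′ on the strand of the gene. Capitals mark matches to the words TTCNNNGAA (GAS) or GAAANNGAAA (ISRE) on either strand. In the whole table of 32851 promoters, 8.30% held the GAS word and 3.44% the ISRE word. The windows are chr11:53769764-53770063 (plus strand) for the first of 2 Irf1 starts, chr11:58199306-58199605 (plus) for Igtp, chr2:122147437-122147736 (plus) for B2m, chr3:107760420-107760719 (minus) for Csf1, chr15:91672974-91673273 (plus) for Lrrk2 and chr3:27316827-27317126 (plus) for Tnfsf10.
Irf1: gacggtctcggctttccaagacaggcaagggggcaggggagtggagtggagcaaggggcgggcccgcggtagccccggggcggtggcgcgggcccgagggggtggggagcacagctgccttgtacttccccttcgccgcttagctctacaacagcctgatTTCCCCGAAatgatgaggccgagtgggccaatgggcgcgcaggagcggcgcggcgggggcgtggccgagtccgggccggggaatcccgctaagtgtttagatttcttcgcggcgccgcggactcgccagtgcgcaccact
Igtp: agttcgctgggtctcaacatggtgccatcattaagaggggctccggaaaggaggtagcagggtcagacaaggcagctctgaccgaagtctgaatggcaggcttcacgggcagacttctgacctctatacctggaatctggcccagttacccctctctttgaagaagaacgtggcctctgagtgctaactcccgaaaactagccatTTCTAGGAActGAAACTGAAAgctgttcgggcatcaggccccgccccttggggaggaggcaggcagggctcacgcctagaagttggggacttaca
B2m: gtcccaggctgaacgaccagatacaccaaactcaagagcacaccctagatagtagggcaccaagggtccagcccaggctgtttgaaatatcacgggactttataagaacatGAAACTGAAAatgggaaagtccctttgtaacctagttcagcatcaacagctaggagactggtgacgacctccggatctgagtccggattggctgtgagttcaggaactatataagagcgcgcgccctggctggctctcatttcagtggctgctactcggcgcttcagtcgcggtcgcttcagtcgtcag
Csf1: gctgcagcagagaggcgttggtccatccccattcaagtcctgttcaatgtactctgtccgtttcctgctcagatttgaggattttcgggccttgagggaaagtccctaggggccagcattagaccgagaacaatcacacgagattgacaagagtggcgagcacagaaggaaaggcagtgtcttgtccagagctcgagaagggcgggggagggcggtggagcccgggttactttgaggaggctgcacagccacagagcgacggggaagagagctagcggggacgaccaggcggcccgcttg
Lrrk2: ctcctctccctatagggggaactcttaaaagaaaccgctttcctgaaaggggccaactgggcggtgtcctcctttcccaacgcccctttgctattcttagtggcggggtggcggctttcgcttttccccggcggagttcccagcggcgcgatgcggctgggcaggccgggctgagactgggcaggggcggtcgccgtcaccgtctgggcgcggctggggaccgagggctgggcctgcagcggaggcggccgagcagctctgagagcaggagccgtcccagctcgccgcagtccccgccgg
Tnfsf10: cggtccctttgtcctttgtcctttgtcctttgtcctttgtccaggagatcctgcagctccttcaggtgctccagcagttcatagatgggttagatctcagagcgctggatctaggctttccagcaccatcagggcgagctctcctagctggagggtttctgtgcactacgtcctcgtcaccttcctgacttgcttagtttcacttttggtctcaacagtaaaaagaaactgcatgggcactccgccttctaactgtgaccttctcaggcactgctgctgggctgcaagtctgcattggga
Irf1 held a GAS word at -90 to -82, counted from the start, Igtp a GAS word at -45 to -37 and an ISRE word at -34 to -25, and B2m an ISRE word at -139 to -130. The window of the other Irf1 start, which is not shown, held neither word. In Csf1, Lrrk2 and Tnfsf10 neither word was found in their windows, which says only that these letters are not in them. A match describes the sequence and was not tested as a binding site.

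The classical MHC class I genes responded alike within the error of the comparison. H2-K1, which encodes a heavy chain, had 202, 219.9 and 135 CPM in the delta controls and 970.0, 1259 and 1006 in Delta IFNγ. In the beta controls it had 250.4, 255 and 201 CPM and in Beta IFNγ 1404, 1314 and 1396. The difference was -0.01 (95% interval -0.70 to 0.69), and all 3 Beta IFNγ libraries lay above all 3 Delta IFNγ libraries, while the controls overlapped. H2-D1 had a difference of -0.10 (-0.89 to 0.70) and the peptide transporter gene Tap1 -0.25 (-1.06 to 0.55). Nlrc5, the transactivator of MHC class I genes, had 0.54 (-0.56 to 1.64).

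B2m encodes beta-2 microglobulin, the light chain that every MHC class I molecule shares. It rose from 31.3, 19.2 and 43.5 to 2325, 1891 and 2426 CPM in delta cells (70.6-fold) and from 31.2, 35.2 and 60.6 to 976, 1714 and 1026 in beta cells (29.3-fold). The controls overlapped, and every Delta IFNγ library lay above every Beta IFNγ library. The difference was 1.27 (SE 0.50, 95% interval 0.22 to 2.32), with an adjusted p of 0.884 in edgeR. It passed the threshold in 1 of 31 alternatives, the fit without a low-count filter. That fit called 98 genes higher and 54 lower for the difference, with 24 acinar genes among the higher ones. B2m overlaps Patl2 on the opposite strand. The nonclassical gene H2-Q7 lay on the same side (1.41, interval 0.24 to 2.59) and H2-T22 on the other (-0.67, -1.30 to -0.05); genes of the H2-Q and H2-T families are close copies, and reads may have been split between them. Among 28 measured genes of MHC class I presentation, 19 rose in delta cells and 20 in beta cells, 12 differences were positive and 16 negative, and their median was -0.10.

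**Figure D2:**
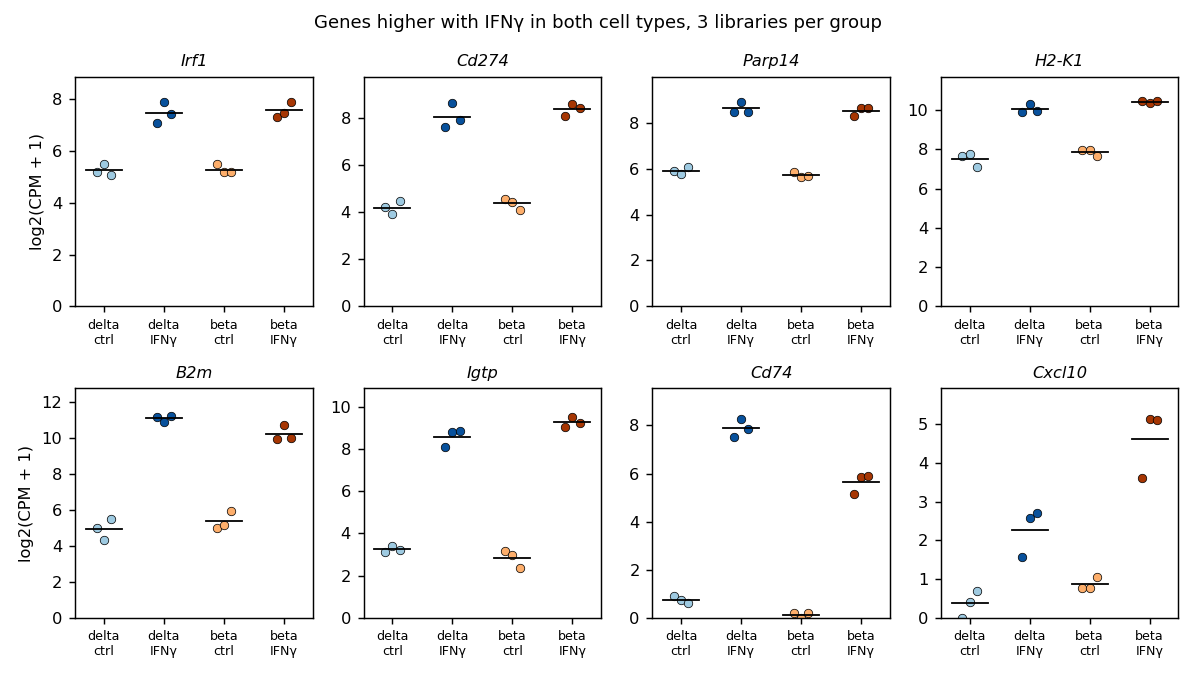
Level of 8 genes in each of the 12 libraries as log2(CPM + 1), with 3 points per group and a bar at their mean. Irf1, Cd274, Parp14 and H2-K1 rose by like amounts in both cell types, every Delta IFNγ library lay above every Beta IFNγ library for B2m and Cd74, and the reverse held for Igtp and Cxcl10.

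MHC class II genes, which professional antigen-presenting cells use and which the transactivator Ciita switches on, were near 0 in the controls of both cell types. Cd74, the invariant chain, had 0.859, 0.649 and 0.519 CPM in the delta controls and 184, 305 and 229 in Delta IFNγ. The beta controls had 0.142, 0 and 0.152 CPM and the Beta IFNγ libraries 34.6, 56.8 and 58.0. The lowest Delta IFNγ library was thus more than 3 times the highest Beta IFNγ library, but the delta controls also lay above the beta controls, and the difference of the responses was -0.46 with an interval from -3.64 to 2.35. The interval is wide because the beta controls held 2 counts of Cd74 in all. H2-Ab1 had 18.9, 40.1 and 25.4 CPM in Delta IFNγ and 8.88, 11.1 and 9.44 in Beta IFNγ, and was at 0 in all 3 beta controls, so that no bounded difference could be given. Ciita itself rose from 2.29, 2.16 and 1.45 to 8.63, 48.4 and 18.4 CPM in delta cells and from 0.855, 0.468 and 1.07 to 6.04, 5.57 and 8.04 in beta cells, a difference of 0.61 (-1.0 to 2.19). Of the 9 genes measured, 6 rose in each cell type.

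The interferon-inducible GTPases, which act against intracellular pathogens at their vacuoles, rose in nearly every member. Of 26 measured, 24 rose in delta cells and 25 in beta cells. The 15 with more than 3 counts in every group had a median response of 6.40 on the log2 scale in delta cells and 6.25 in beta cells. Of these 15, 10 had a difference below 0 and 5 above, with a median of -0.48 beside -0.06 for all genes with such counts. Igtp rose from 7.63, 9.52 and 8.3 to 271, 456 and 463 CPM in delta cells and from 8.12, 6.91 and 4.11 to 537, 742 and 611 in beta cells. Every Beta IFNγ library lay above every Delta IFNγ library, and the controls overlapped. The difference was -1.07 (SE 0.41, 95% interval -1.94 to -0.20), at an adjusted p of 0.884 in edgeR. Irgm2, whose annotated span overlaps Igtp on the same strand, had -0.67 (-1.37 to 0.02).

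Among the guanylate-binding proteins, Gbp8 had 16.03, 17.9 and 30.2 CPM in the delta controls and 280.2, 491 and 334 in Delta IFNγ. It had 6.84, 6.56 and 5.63 CPM in the beta controls and 243, 298 and 313 in Beta IFNγ. The cell types overlapped with IFNγ, the delta controls were the higher ones, and the difference was -1.38 (-2.24 to -0.52). Gbp9 had -1.66 (-2.98 to -0.37), and Gbp11 lay on the other side with 2.13 (0.45 to 3.92), its delta controls at 0, 0.324 and 0.623 CPM beside 3.28, 2.58 and 1.22 in the beta controls. Gbp6, at 875 to 1386 CPM in the treated libraries of both cell types, had 0.58 (-0.22 to 1.39). The spans of Gbp8, Gbp9 and Gbp4 overlap on 1 strand and the family holds near-identical copies, so counts may have moved between members. Iigp1 was at 0 in all 3 delta controls and at 0, 0.234 and 0 CPM in the beta controls, and reached 451, 845 and 893 CPM in Delta IFNγ and 639, 1321 and 1573 in Beta IFNγ.

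Of 65 measured antiviral interferon-stimulated genes, 49 rose in delta cells and 48 in beta cells, and 22 of the 57 with more than 3 counts in every group had an interval within 1 log2 unit of 0. Their median difference was -0.10. Parp14, an ADP-ribosyltransferase gene, was among the closest pairs: it went from 58.8, 52.9 and 66.5 to 355, 483 and 359 CPM in delta cells and from 56.7, 48.7 and 50.8 to 311, 400.2 and 394 in beta cells, with a difference of -0.08 (-0.68 to 0.53). Rtp4, a chaperone gene of G protein-coupled receptors that interferons induce, had the smallest p of the list. It rose from 18.99, 19.2 and 25.02 to 145, 137 and 171 CPM in delta cells and from 5.56, 3.75 and 4.72 to 51.0, 73.8 and 57.2 in beta cells. Delta cells were the higher under both treatments with no overlap, and the difference was -0.86 (-1.54 to -0.19). Oas2, a sensor of double-stranded RNA, had 1.35 (0.18 to 2.53), Ifit3 -1.47 (-2.74 to -0.22), and Ube2l6, the conjugating enzyme of the ubiquitin-like Isg15, -1.01 (-1.82 to -0.21).

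Cd274 encodes PD-L1, the ligand that restrains T cells through PD-1. In delta cells it rose from 17.5, 14.3 and 21.0 to 195, 392 and 242 CPM (15.7-fold). In beta cells it rose from 22.8, 20.6 and 16.3 to 271, 391 and 347 CPM (16.9-fold). The cell types overlapped under both treatments, and the difference of -0.10 (SE 0.38, 95% interval -0.91 to 0.70) lay within 1 log2 unit of 0 over its whole interval. Il18bp, the decoy of interleukin 18, had -0.28 (-0.91 to 0.36). Of 16 measured genes of immune checkpoint and regulation, 3 rose in each cell type.

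Chemokine and cytokine genes were few at measurable levels. Cxcl10, a chemokine that attracts T cells, had 0, 0.324 and 0.623 CPM in the delta controls, 1.95, 4.97 and 5.49 in Delta IFNγ, 0.712, 0.702 and 1.07 in the beta controls and 11.2, 34.0 and 33.3 in Beta IFNγ. Every Beta IFNγ library lay above every Delta IFNγ library, as every beta control did above every delta control, and the difference was -1.28 with an interval from -3.20 to 0.72. Of the 9 genes of this list measured, 3 were called higher in delta cells and 1 in beta cells. These counts turn on the threshold. Il15ra was called in delta cells with a response of 1.09, and its beta response of 0.97 had an adjusted p of 0.0546 in edgeR. Of 14 complement genes, 4 rose in delta cells and 3 in beta cells, and the median difference of the 13 with more than 3 counts in every group was 0.22.

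Csf1, the growth factor of macrophages, had the smallest p for the difference of all genes (chromosome 3, 107741048 to 107760469, minus strand, GRCm38). It had 6.39, 4.65 and 3.94 CPM in the delta controls and 23.2, 35.9 and 25.6 in Delta IFNγ, which was a rise of 5.63-fold. The beta controls had 26.6, 23.5 and 23.3 CPM and the Beta IFNγ libraries 40.7, 36.5 and 31.1, and the beta response of 0.56 did not pass the threshold. The delta controls stood apart from the other groups, and Delta IFNγ lay at 23.2 to 35.9 CPM beside 23.3 to 40.7 over the 6 beta libraries. The difference was 1.93 (SE 0.36, 95% interval 1.18 to 2.69), with an adjusted p of 0.681 in edgeR. In 2 of 31 alternatives it passed the threshold, DESeq2 (adjusted p = 0.00561) and the edgeR fit without a low-count filter (0.000297), and the adjusted p ranged up to 1.00 in the others. The fit without the filter also called 24 acinar genes higher, as given for B2m. Leaving out any 1 library kept the Csf1 value between 1.73 and 2.15.

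**Figure D3:**
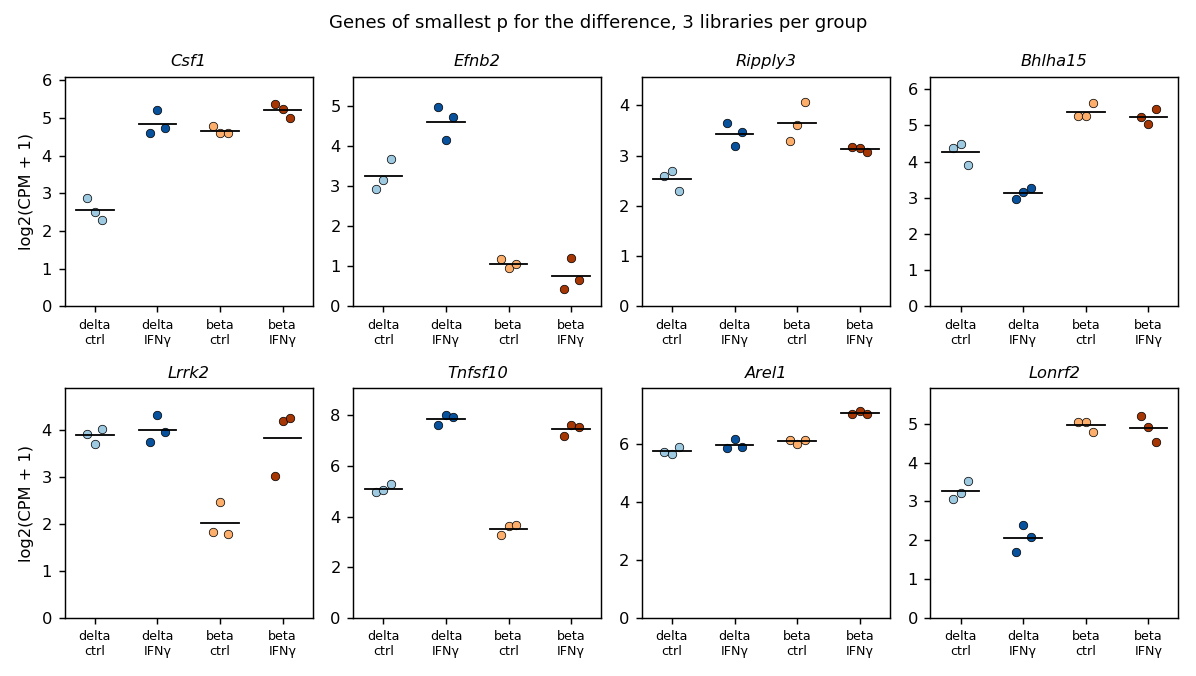
Level of 8 protein-coding genes of small p for the difference in each of the 12 libraries as log2(CPM + 1), with 3 points per group and a bar at their mean. Csf1 is low in the delta controls alone, Lrrk2 in the beta controls alone, Tnfsf10 starts lower in beta cells and reaches a like level, and Bhlha15 and Lonrf2 fall in delta cells; none passed the threshold for the difference.

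Lrrk2 encodes a leucine-rich repeat kinase and showed the reverse arrangement (chromosome 15, 91673175 to 91816120, plus strand). It had 14.2, 12.1 and 15.4 CPM in the delta controls and 12.4, 18.98 and 14.5 in Delta IFNγ, which overlapped. In beta cells it rose from 2.56, 4.57 and 2.43 to 7.11, 17.4 and 18.1 CPM (4.42-fold). The beta controls stood below the other groups, and the difference was -2.01 (SE 0.48, -3.01 to -1.01). As for B2m, it was called only in the fit without a low-count filter, and leaving out any 1 library kept the value between -2.38 and -1.79.

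Tnfsf10, the gene of the death ligand TRAIL, rose in both cell types. It went from 30.1, 32.3 and 38.5 to 194, 255 and 244 CPM in delta cells (6.88-fold) and from 8.55, 11.2 and 11.7 to 144, 196 and 187 in beta cells (16.7-fold). The controls did not overlap, the treated libraries of the cell types did, and the difference was -1.28 (SE 0.35, -2.01 to -0.56). Of 28 measured cell death genes, 4 rose in delta cells and 5 in beta cells, and the median difference of the 23 with more than 3 counts in every group was -0.14.

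The levels behind these values approached each other with IFNγ for some of the 14 genes listed above and moved apart for others. The absolute log2 ratio of delta to beta level was smaller with IFNγ for 8 of them and larger for 6. For Tnfsf10 the log2 ratio of delta to beta level was 1.68 in the controls and 0.39 with IFNγ, for Gbp8 1.75 and 0.37, for Ifit3 1.54 and 0.04, and for Oas2 -1.70 and -0.34. For B2m it was -0.43 in the controls and 0.84 with IFNγ, for H2-Q7 -0.33 and 1.08, and for Igtp 0.41 and -0.67. Over the 128 genes higher in both cell types the absolute ratio had a median of 0.50 in the controls and 0.51 with IFNγ, and it was smaller with IFNγ in 68 of them (53.1%), beside 34.5% of the 16428 genes. These ratios are the terms of which the difference is made, and the control values rest on fewer counts (a median of 164 in the lower of the control groups, 1436 in the lower of the treated groups), so they describe the genes and test nothing.

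Other genes of small p were not on the interferon lists, and none passed the threshold in the fit of all libraries. Efnb2, a ligand of Eph receptors, rose in delta cells from 6.58, 7.89 and 11.7 to 30.2, 16.6 and 25.1 CPM, and had 1.28, 0.937 and 1.07 CPM without and 0.355, 1.3 and 0.583 with IFNγ in beta cells. Its difference was 1.93 (0.72 to 3.15). Ripply3, a transcriptional corepressor gene, had 5.06, 5.51 and 3.94 CPM in the delta controls, 11.6, 8.15 and 10.1 in Delta IFNγ, 8.83, 11.2 and 15.7 in the beta controls and 7.99, 7.94 and 7.46 in Beta IFNγ. The groups did not overlap within either cell type and lay in opposite order, and the difference was 1.64 (0.83 to 2.47). Arel1, an E3 ubiquitin ligase gene, rose in beta cells from 70.2, 64.0 and 70.3 to 132, 139.5 and 133 CPM, had 52.1, 49.5 and 58.2 without and 57.1, 72.1 and 58.4 with IFNγ in delta cells, and had a difference of -0.75 (-1.19 to -0.31). Tmem140 (-1.69, -2.86 to -0.52) and Wars, the cytosolic tryptophanyl-tRNA synthetase gene (-0.76, -1.50 to -0.03), were also called higher in beta cells alone. Gm8226, a processed pseudogene, was at 0 in the 3 delta controls and had 3.2, 6.24 and 9.92 CPM in Delta IFNγ beside 8.16 to 13.1 CPM in the 6 beta libraries. Its difference has no bound. It passed the threshold in 4 of 31 alternatives (DESeq2, no low-count filter, the 12 delta and beta libraries alone, and without Alpha IFNγ 2), with adjusted p from 9.1e-18 to 1.00 over all alternatives, and its reads may belong to the parent gene or its copies.

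Genes called lower with IFNγ numbered 32 in delta cells and 1 in beta cells. The delta number depended on single libraries and on the tool: it was 16 without Delta IFNγ 1, 18 without delta control 2, 74 without Delta IFNγ 3, 92 with DESeq2 and 62 with offsets for GC content. Of the 32, 30 had more than 3 counts in every group; 26 of the 30 had a negative beta value as well, with medians of -1.46 in delta and -0.28 in beta cells, and since they were chosen on the delta response their difference is given as a description only. Bhlha15 (Mist1), a transcription factor gene of secretory cells, fell from 19.8, 21.3 and 14.01 to 6.82, 8.03 and 8.6 CPM in delta cells. In beta cells it had 37.6, 37.1 and 48.4 CPM without and 36.4, 32.0 and 43.0 with IFNγ, which overlap, and the difference was -1.09 (-1.70 to -0.47). Lonrf2 fell from 7.35, 8.33 and 10.6 to 2.23, 4.2 and 3.2 CPM in delta cells (difference -1.37, -2.10 to -0.65). Chid1 fell from 55.2, 63.6 and 49.8 to 31.6, 32.9 and 32.0 (difference -0.76, -1.22 to -0.30). The 1 gene lower in beta cells, Dbndd2, fell from 4.27, 2.34 and 2.89 to 1.24, 0.474 and 1.05 CPM there and had a delta response of 0.02.

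**Figure D4:**
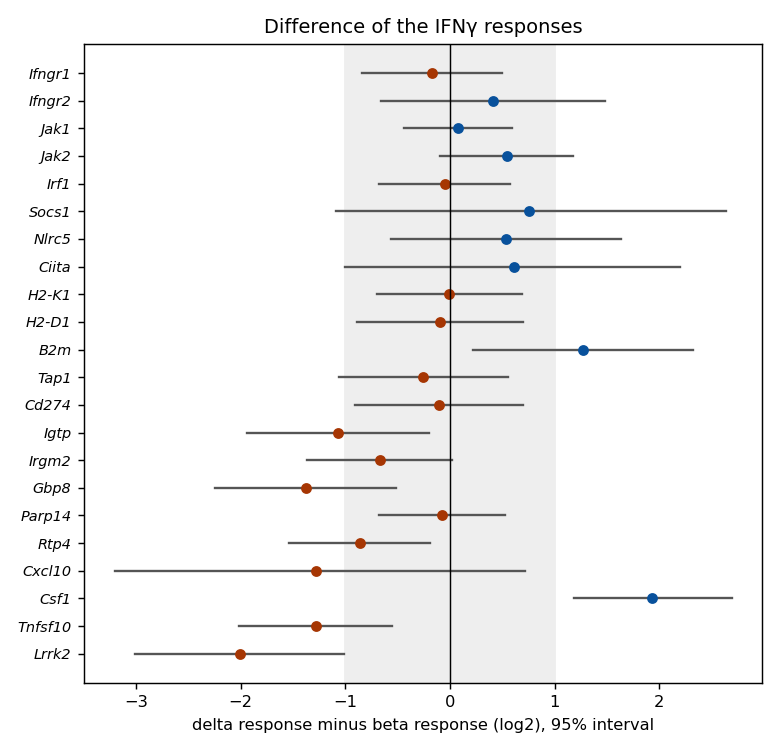
Difference of the responses (delta minus beta, log2) with its 95% interval for 22 named genes, from the receptor chains at the top to the genes of smallest p at the bottom, with grey shading within 1 log2 unit of 0. Ifngr1, Jak1, Irf1, H2-K1, H2-D1, Cd274 and Parp14 have their whole interval in the shaded band, and the intervals of B2m, Igtp, Gbp8, Rtp4, Csf1, Tnfsf10 and Lrrk2 exclude 0 before adjustment for the number of genes.

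Cell identity genes and markers of other cells were described in the same way, and 0 of their members were called in either response. Over all genes tested, 1.21% were called higher and 0.185% lower in delta cells, and 1.06% and 0.00577% in beta cells. At those shares a short list would hold few calls or none, so the 0 does not set these lists apart. Among genes with more than 3 counts in every group, the delta identity list had a median difference of -0.18 over 16 genes and the beta identity list -0.39 over 20. It was -0.66 over 16 alpha identity genes, -0.64 over 7 genes of polypeptide and ghrelin cells and -0.46 over 11 type 1 diabetes autoantigen genes. It was -0.20 over 22 genes of the unfolded protein response and -0.12 over 20 of NF-kB and oxidative stress. All 11 autoantigen genes lay below 0, beside 8968 of the 16428 genes with such counts. Of the 12 autoantigen genes tested at any count, 1 lay above 0. The autoantigen list shares Ins1, Ins2 and Iapp with the beta identity list. Sst itself had 35919, 34772 and 14715 CPM in the delta controls and 9561, 14003 and 14819 in Delta IFNγ, where delta control 3 lay within the treated range. In delta libraries Ins2 is a trace, and it had 71.2, 45.0 and 196 CPM in the controls and 8.91, 10.3 and 33.4 with IFNγ, a difference of -2.42 (-4.61 to -0.23). The 28 acinar genes with more than 3 counts in every group all had a positive difference, with a median of 2.28, made of medians of -0.64 in delta and -2.85 in beta cells. Their sums are those given above, with beta control 1 the highest of the beta libraries. For Ctrb1, a chymotrypsinogen gene at 388, 6.67 and 0.152 CPM in the beta controls, the difference was 2.21 (-1.51 to 5.94), and it was -2.94 with delta control 3 and beta control 1 left out together. The immediate early and dissociation genes had a median difference of 0.60 over 25 genes, made of medians of 0.56 in delta and -0.26 in beta cells. Their sums were 805 to 1545 CPM in the delta controls, 1491 to 1736 in Delta IFNγ and 505 to 1040 in Beta IFNγ, beside the beta controls given above. Egr1 among them had 538, 219 and 222 CPM in the delta controls, 594, 557 and 389 in Delta IFNγ, 78.2, 131 and 428 in the beta controls and 131, 66.6 and 180.2 in Beta IFNγ, and a difference of 1.40 (-0.24 to 3.05), which was 0.17 with delta control 3 and beta control 3 left out together. The part of acinar RNA or of the dissociation in the differences of other genes was not tested. In bulk samples of sorted cells, fewer cells of a type and less RNA per cell cannot be told apart.

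**Figure D5:**
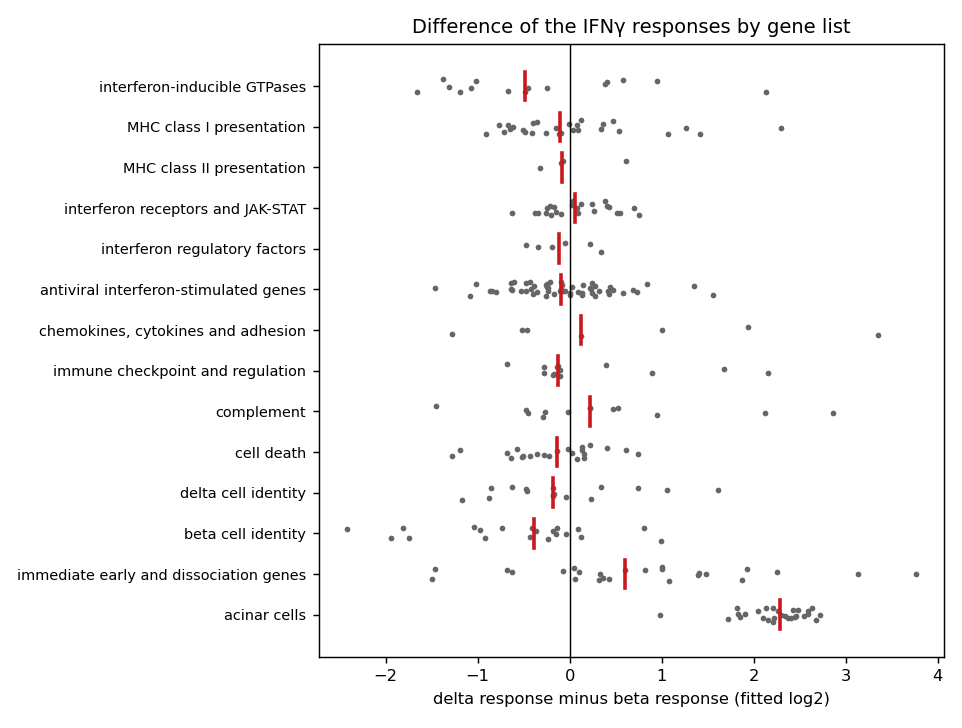
Difference of the responses (delta minus beta, fitted log2) for the members of 14 gene lists with more than 3 counts in every group, 1 grey point per gene, spread vertically at random, and a red bar at the list median. The interferon lists lie on both sides of 0, with medians from -0.48 (GTPases) to 0.22 (complement), while the acinar genes lie at a median of 2.28.

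The difference also followed the GC content of genes. Its median was 0.35 over the 4196 genes of lowest GC content and -0.34 over the 4196 of highest, where the delta response had 0.25 and -0.26 and the beta response -0.12 and 0.08. In the libraries, the median level of low-GC genes relative to high-GC genes (log2, around each gene's mean) was -0.15, -0.12 and 0.76 in the delta controls and 0.72, 0.36 and 0.77 in Delta IFNγ, so that delta control 3 stood with the treated libraries. Beta IFNγ had -0.68, -0.40 and -0.42, and the beta controls -0.71, -0.31 and 0.15. With offsets for GC content, 0 genes were called for the difference, and the values were 2.15 for Csf1, -2.41 for Lrrk2, -1.29 for Tnfsf10, 0.85 for B2m and -0.99 for Igtp. With delta control 3 and beta control 3, or delta control 3 and beta control 1, left out together, the number called was also 0. The delta response then had 194 or 188 higher and 30 or 23 lower genes, and the beta response 155 or 160 higher and 1 or 2 lower.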

How the data were processed

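RNA was read from sorted cells with the Ovation SoLo kit after ribosomal RNA depletion, paired-end on a NextSeq instrument. The authors aligned reads with STAR 2.5.2b to GRCm38 with GENCODE M23 and quantified genes with RSEM, for which no version was found. The deposited per-library files hold expected counts, estimated and not whole, and TPM, which was used only to describe levels in the result tables. The study used DESeq2 1.32.0 with batch as a term, but the labels name no batch.

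Expected counts were rounded to whole numbers and fitted with edgeR 4.0.16 (R 4.3.3) in 1 model of all 18 libraries with a mean for each group, after filterByExpr at a minimum count of 10 and TMM scaling. The quasi-likelihood test of the interaction was adjusted by Benjamini and Hochberg over 17338 genes at a threshold of 0.05. Standard errors and 95% intervals come from the fitted dispersions. Alternatives included DESeq2 1.42.0 and limma 3.58.1. The fit was also run on simulated counts of independent libraries, without the acinar, GC and date differences of these data. That run cannot show how the fit handles such differences.

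Of 55487 gene identifiers, 99.53% matched GENCODE M21 for names and positions. The library chemistry was strand-specific, but no strand setting of the counting was found, so overlapping genes are uncertain. The 12 delta and beta libraries totalled 6128845 to 11531734 counts, of which 5.60% to 36.7% were ribosomal RNA. Named genes were a preset list (receptor, signalling, presentation and hormone genes), the genes of smallest p for the difference up to 12 in each direction with a mean of at least 5 CPM in a group, for each list the member of smallest p and the 2 of highest level with IFNγ, and the 6 of smallest p among genes called in 1 response only. Others are said to be chosen after their values were seen. The members and lists were chosen with earlier results of these data known. Per-sample columns left unmapped numbered 0. A gene of the preset list is not reported here.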

Additional observations from a re-analysis of the deposited data

How the results depend on the processing

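Of 31 alternatives, 18 left out 1 library and 13 changed another choice, and in 26 of them 0 genes were called for the difference. Leaving out 1 library gave 0 to 1 higher and 0 lower genes for the difference (the 1, Gm8226, without Alpha IFNγ 2), 160 to 227 higher and 16 to 74 lower genes in delta cells, and 147 to 196 higher and 0 to 2 lower genes in beta cells. With the 12 delta and beta libraries alone, 1 gene was higher for the difference (Gm8226), 51 were lower in delta cells and 0 lower in beta cells. DESeq2 called 2 higher (Csf1, Gm8226) and 2 lower (Zxda, Gm15725, named after their values were seen) for the difference. The log2 differences of Zxda and Gm15725 in DESeq2 were -20.8 and -22.0. In the edgeR fit of all libraries their unadjusted p was 0.124 and 0.0506. DESeq2 also called 92 lower in delta and 3 lower in beta cells. With the date as a fixed term, the 4 delta libraries and 1 beta library alone on their date no longer inform the groups, so the delta response there rests on Delta control 3 and Delta IFNγ 1 through the alpha and beta libraries of their dates, and it supports nothing for or against a difference. That fit gave 1 higher and 8 lower for the difference, 83 higher in delta and 27 lower in beta cells, and the signs of B2m (-0.53), Rgs4 (-0.15), Tsga10 (-0.10) and Wars (0.36) turned, 4 of the 37 named genes with an unadjusted p under 0.05. Of all 113 named genes, 60 changed sign under at least 1 alternative, that fit included. Without a low-count filter 98 were higher (24 of them acinar genes) and 54 lower for the difference. The same fit gave 415 higher and 177 lower in delta and 80 lower in beta cells. That fit had no finite prior degrees of freedom, and the cause of the larger counts was not tested. GC offsets gave 62 lower in delta and 3 lower in beta cells, GC offsets with the replicate block 71 and 5, limma-voom 0 lower in beta cells, limma-voom with the date as a random block 19 lower in delta cells, and leaving out Delta control 3 with Beta control 1 2 lower in beta cells. With the replicate number as a block, 0 genes were called for the difference, 203 higher and 38 lower in delta cells and 180 higher and 1 lower in beta cells. Same-numbered libraries of different delta and beta groups did not deviate together throughout (18 pairs, correlations -0.27 to 0.41, mean 0.03). With 3 libraries a group, such correlations cannot decide whether the numbers pair the samples, which stays unknown. The 4 pairs of 1 date had a mean correlation of 0.26, and the random block gave 0.31 within a date. With 3 libraries a group, the median standard error of the difference (0.386 for genes of at least 5 CPM) limits the differences that could be detected.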
